A study of Homo sapiens with 58 samples.

Results

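Baseline transcript levels were compared between sides made of breast cancer cell lines. Lines of the first side are known for amplification of the receptor gene ERBB2 (HER2) and classed as negative for the estrogen receptor. Those of the second are luminal lines known for the estrogen receptor and classed as not HER2-amplified. HER2 status and estrogen receptor status thus differ together between the sides, and the part of each in a difference was not tested. The first side held the 5 lines HCC1954, SKBR3, AU565, HCC1569 and UACC893, and the second held the 5 lines T47D, CAMA1, MDAMB175VII, ZR751 and KPL1, so that 10 of the 58 lines of the series entered the comparison. The lines were chosen by name and by the subtype known for them from outside the data, because the labels give only the name of each line. All were grown as the vendor recommends without treatment, and total RNA of each was read out on 1 custom Affymetrix array. Values are log2 intensities made by RMA (robust multi-array average), so a difference of 1 is a doubling of signal.

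SKBR3 and AU565 were established from the same donor and were averaged into 1 unit, called AU565/SKBR3, which left 4 units on the HER2-amplified ER-negative side against 5 ER-positive lines. KPL1 is reported elsewhere to be a derivative of MCF-7, MDAMB175VII to carry a fusion of the ERBB ligand gene NRG1, and HCC1954 and HCC1569 to have basal features. Each line stands for 1 tumour and was measured 1 time. The p-values below therefore measure the spread between lines and not that between cultures of a line, and the number of arrays limits the precision. In cultured lines as in tissue, fewer cells with a transcript and less of it per cell cannot be told apart in such values. Gene copy number was not analysed here.

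ERBB2 encodes a receptor tyrosine kinase that binds no ligand of its own and signals by pairing with other receptors of its family, above all ERBB3, into the MAPK and PI3K pathways. It lies on chromosome 17 among genes that are often amplified with it. The estrogen receptor, encoded by ESR1, is a transcription factor that is switched on by its hormone, and in luminal cells it works on chromatin opened by FOXA1 and together with GATA3.

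The 10 arrays were alike in overall signal. The array medians of the 9 units lay between 5.44 and 5.53, and the spread of each array around the typical gene level (relative log expression, interquartile range), used to judge arrays, was 0.452 to 0.563. Neither differed between the sides beyond the spread of units (2-sided exact permutation test over all assignments of the 9 units, p = 0.714 and p = 0.968). Of 19798 genes with a probe set that names them alone, 12569 were above the array median in at least 3 of the 9 units and were tested.

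The marker genes of the 2 subtypes matched the chosen sides. ERBB2 stood at 13.66 in HCC1954, 13.60 in AU565/SKBR3, 13.68 in HCC1569 and 13.69 in UACC893, against 11.28 in T47D, 11.98 in CAMA1, 12.40 in MDAMB175VII, 11.96 in ZR751 and 10.77 in KPL1. The 4 HER2-amplified units lay within a narrow band, above every ER-positive line. Over the other 48 lines of the series the lowest, median and highest ERBB2 values were 8.61, 10.53 and 13.68. The amplified units were nearly equal to each other and to the highest of those 48 lines. Whether the probe set was at its ceiling was not tested, and a ceiling would make the difference too small. The difference of ERBB2 was 1.98 ± 0.29 (SE), or 3.94-fold, with an adjusted p of 0.064, and was not called (limma with Benjamini-Hochberg adjustment over all genes tested, threshold 0.05). Without MDAMB175VII, the ER-positive line with the highest value, its adjusted p by limma was 0.0362 and ERBB2 was called. Leaving out that line by itself raises the difference. ERBB2 was not called without HCC1569, without AU565/SKBR3 or without ZR751. GRB7, an adaptor protein that binds the activated receptor and is encoded close to it, stood at 12.44 in HCC1954, 11.57 in AU565/SKBR3, 10.28 in HCC1569 and 12.50 in UACC893, and at 7.90 in T47D, 7.84 in CAMA1, 8.26 in MDAMB175VII, 8.02 in ZR751 and 7.53 in KPL1. The groups did not overlap, and HCC1569 was the lowest of the amplified units.

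ESR1 gave the mirror image, with wide spread on one side. Its values were 8.60 in HCC1954, 6.80 in AU565/SKBR3, 3.89 in HCC1569 and 9.18 in UACC893, and 12.73 in T47D, 12.24 in CAMA1, 11.73 in MDAMB175VII, 12.69 in ZR751 and 12.45 in KPL1. All ER-positive lines were above all HER2-amplified units, which ran from below the array median in HCC1569 to well above the array median in UACC893 and HCC1954. The mean difference of -5.25 ± 0.94 had an adjusted p of 0.149 by limma. Without HCC1569 the difference was -4.17 ± 0.51 with an adjusted p of 0.0228 by limma, and ESR1 was then called. ESR1 was not called without AU565/SKBR3 or without ZR751.

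**Figure D1:**
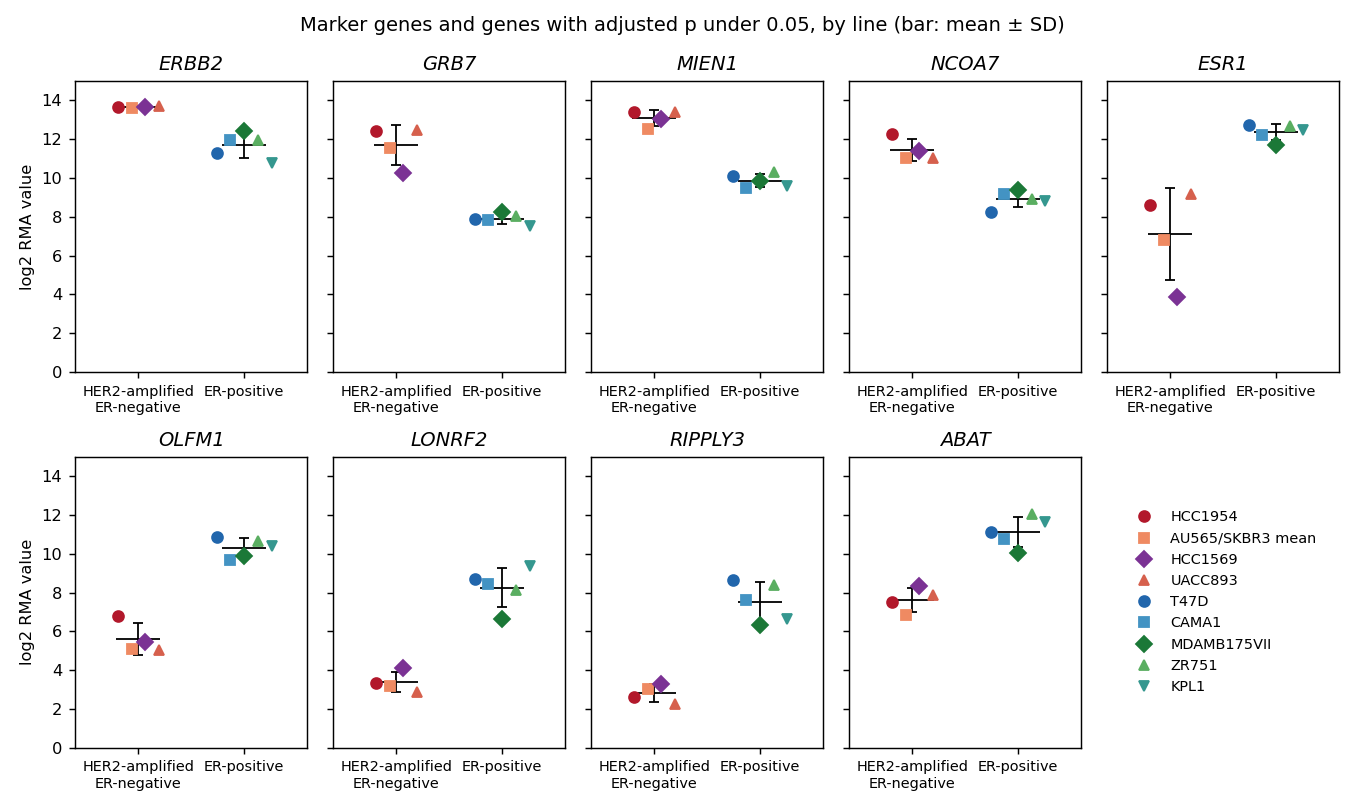
Log2 RMA values (y axis) of the marker genes ERBB2, GRB7 and ESR1 and of every gene with an adjusted p under 0.05, for the 4 HER2-amplified ER-negative units and the 5 ER-positive lines (x axis). Points are lines and bars are the mean ± SD; in each panel shown the 2 sides do not overlap, and ESR1 is widest on the HER2-amplified side, from 3.89 in HCC1569 to 9.18 in UACC893.

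Across all genes, 3 passed the test as higher (0.0239% of those tested) and 4 as lower (0.0318%) in the HER2-amplified ER-negative lines, each by more than 1 log2 unit. At an unadjusted p under 0.05 there were 444 higher (3.53%) and 742 lower (5.9%) genes. The 2 sides did not overlap for 156 genes that were higher (1.24%) and 305 that were lower (2.43%). The median difference over all genes tested was -0.04, a value that the normalization holds near 0 and that is given only as the reference for the lists below. In simulated data with the same units, 56 of 100 planted differences of 2 and 82 of 100 planted differences of 4 were recovered, with 5 unchanged genes called. Far more genes passed there than in the real data, and the noise was independent between genes. The adjusted threshold was thus easier to reach, and the share recovered in the real data may be smaller. A gene that was not called may still differ.

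**Figure D2:**
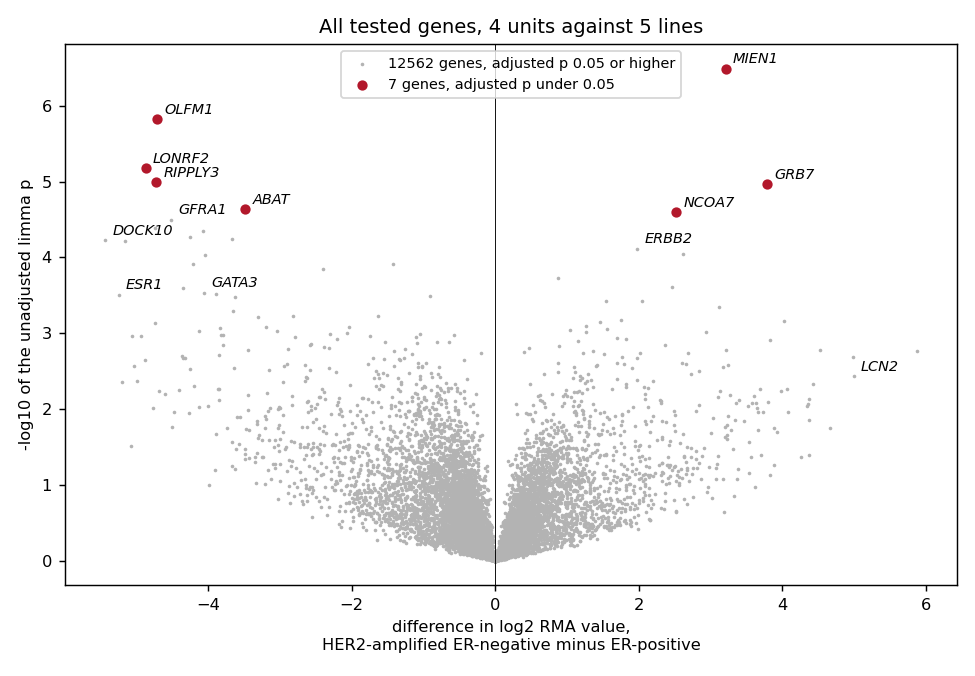
Difference in log2 RMA value between HER2-amplified ER-negative and ER-positive units (x axis) against -log10 of the unadjusted limma p (y axis) for the 12569 genes tested. The 7 genes with an adjusted p under 0.05 are in red, from MIEN1 at 3.21 to LONRF2 at -4.87, and ERBB2, ESR1, GATA3, GFRA1, DOCK10 and LCN2 are named for orientation.

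Of the 3 higher genes, MIEN1 and GRB7 flank each other beside ERBB2. MIEN1, which encodes a small membrane-anchored protein linked to cell migration, stood at 13.42 in HCC1954, 12.51 in AU565/SKBR3, 13.04 in HCC1569 and 13.38 in UACC893, and at 10.12 in T47D, 9.50 in CAMA1, 9.83 in MDAMB175VII, 10.33 in ZR751 and 9.57 in KPL1. Its lowest amplified unit was more than 2 log2 units above its highest ER-positive line. The difference was 3.21 ± 0.25, which is 9.27-fold, with an adjusted p of 0.00407 by limma, the smallest of all genes. GRB7 differed by 3.79 ± 0.44, or 13.8-fold, with an adjusted p of 0.027 by limma. NCOA7, which encodes a coactivator that binds nuclear receptors and has been linked to oxidative stress, lies outside 17q12. It stood at 12.27 in HCC1954, 11.03 in AU565/SKBR3, 11.42 in HCC1569 and 11.06 in UACC893, and at 8.26 in T47D, 9.19 in CAMA1, 9.40 in MDAMB175VII, 8.92 in ZR751 and 8.84 in KPL1. The groups did not overlap, and the difference of 2.52 ± 0.33 had an adjusted p of 0.0456 by limma.

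The 4 lower genes were all separated from the ER-positive lines by a clear gap. OLFM1, a secreted glycoprotein best known from neurons, stood at 6.79 in HCC1954, 5.07 in AU565/SKBR3, 5.46 in HCC1569 and 5.03 in UACC893, and at 10.86 in T47D, 9.68 in CAMA1, 9.88 in MDAMB175VII, 10.66 in ZR751 and 10.39 in KPL1. Every ER-positive line was above 9 and every amplified unit below 7, a difference of -4.71 ± 0.44 with an adjusted p of 0.00942 by limma. Of the amplified units only HCC1954 was above the array median for OLFM1. LONRF2, which encodes a protein with RING finger and LON domains, stood at 3.35 in HCC1954, 3.17 in AU565/SKBR3, 4.09 in HCC1569 and 2.89 in UACC893, and at 8.68 in T47D, 8.42 in CAMA1, 6.65 in MDAMB175VII, 8.12 in ZR751 and 9.36 in KPL1. MDAMB175VII was the lowest ER-positive line and still more than 2 log2 units above HCC1569, the highest amplified unit. RIPPLY3, a transcriptional corepressor that acts with T-box factors, ran from 2.26 to 3.31 in the amplified units and from 6.31 to 8.66 in the ER-positive lines. The differences were -4.87 ± 0.54 for LONRF2 and -4.72 ± 0.55 for RIPPLY3, both with an adjusted p of 0.027 by limma. For both genes all 4 amplified units were below the array median, so the genes passed the filter through the ER-positive lines alone, and the size of both differences is set against values near the low end of the array.

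ABAT, the enzyme that breaks down the transmitter GABA and the only called gene among the listed estrogen targets, stood at 7.53 in HCC1954, 6.84 in AU565/SKBR3, 8.31 in HCC1569 and 7.87 in UACC893, and at 11.14 in T47D, 10.77 in CAMA1, 10.03 in MDAMB175VII, 12.04 in ZR751 and 11.63 in KPL1. It differed by -3.48 ± 0.45 with an adjusted p of 0.0456 by limma, without overlap.

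How firmly these calls stand differed between the genes. MIEN1 stayed under the threshold when any 1 of the 9 units was left out, with adjusted p from 0.00454 to 0.0316. OLFM1 lost its call without AU565/SKBR3 (adjusted p = 0.0548) or without ZR751 (0.0551). LONRF2 and RIPPLY3 lost theirs without HCC1954, AU565/SKBR3, CAMA1 or ZR751, with adjusted p up to 0.0861 for both. GRB7 lost its call in 6 of the 9 such fits, those without HCC1954, AU565/SKBR3, T47D, CAMA1, ZR751 or KPL1, with adjusted p up to 0.0963, and it had its smallest value, 0.00209, without HCC1569. ABAT was called in 2 of the 9 fits, those without MDAMB175VII or HCC1569, and NCOA7 in 1, that without MDAMB175VII, with adjusted p up to 0.13 for both. The signs did not change in any of these fits. Under the other alternatives, MIEN1 and OLFM1 were called in 12 of 12, GRB7 and LONRF2 in 11 of 12 and RIPPLY3 in 9 of 11. ABAT was called in 6 of 12 and NCOA7 in 7 of 12, with adjusted p by limma up to 0.128 and 0.081. The total of calls ran from 1 without AU565/SKBR3 or without ZR751 to 28 without HCC1569, where 10 were higher (0.0808% of 12382 genes tested) and 18 lower (0.145%). Without both HCC1569 and HCC1954 it was 7 higher (0.0573% of 12212) and 24 lower (0.197%).

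The start of ERBB2 lies next to that of PGAP3, which encodes an enzyme that remodels the lipid of GPI anchors and is read in the opposite direction. The 2 RefSeq starts are separated by 36 bases at chr17:39688058-39688093 (GRCh38.p14), shown because the pair came apart in HCC1569, as given further on. They are followed by the 200 bases before the start of MIEN1, at chr17:39730533-39730732 on the minus strand, and before that of LONRF2, at chr2:100322502-100322701 on the minus strand. These are the 2 called genes, 1 in each direction, whose start the RefSeq table gives with a single window. Capitals mark the ETS motif CCGGAA in the first, the half-site AGGTCA of the estrogen response element in the second and the AP-2 motif GCCNNNGGC in the third, each searched on both strands.
ERBB2 to PGAP3: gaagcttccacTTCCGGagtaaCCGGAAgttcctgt
MIEN1: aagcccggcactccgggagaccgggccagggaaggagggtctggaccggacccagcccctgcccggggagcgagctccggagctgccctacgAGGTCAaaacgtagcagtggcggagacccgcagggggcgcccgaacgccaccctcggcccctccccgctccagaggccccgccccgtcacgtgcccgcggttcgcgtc
LONRF2: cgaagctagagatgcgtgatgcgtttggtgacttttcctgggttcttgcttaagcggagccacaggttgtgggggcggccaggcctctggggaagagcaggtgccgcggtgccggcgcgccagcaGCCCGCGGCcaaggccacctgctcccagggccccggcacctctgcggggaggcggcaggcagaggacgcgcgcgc
The ETS motif occurs 2 times in the bases between ERBB2 and PGAP3, on opposite strands. Over the 250 bases before all 35116 starts in the table, 14.5% held the ETS motif, 12.1% the half-site and 19.8% the AP-2 motif, while the full element GGTCANNNTGACC was in 0.0399%. Of 36 such windows of 23 estrogen target genes, 0 held the full element, 6 (16.7%) the half-site and 13 (36.1%) the AP-2 motif. A match of letters is a description of these windows and no measurement of binding.

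The genes around ERBB2 on 17q12 to 17q21 were then followed in their order on the chromosome. Of 28 genes listed, 23 were tested, 20 of them had a higher mean in the HER2-amplified units, and the median difference was 1.16, against -0.04 for all genes. As stated, 2 of the 23 were called, MIEN1 and GRB7. The sides did not overlap for 5, ERBB2, MIEN1, GRB7, STARD3 and TCAP, against a background of 1.24%, and 0 of the 23 were lower without overlap. The neighbours of ERBB2 were also chosen because they are known to be amplified with it, so their direction is not independent of how the lines were chosen.

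STARD3, which encodes a sterol-binding protein of late endosomes, stood at 11.99 in HCC1954, 10.45 in AU565/SKBR3, 8.49 in HCC1569 and 11.20 in UACC893, and at 8.14 in T47D, 7.57 in CAMA1, 7.51 in MDAMB175VII, 7.57 in ZR751 and 7.20 in KPL1. The other 3 amplified units were at least 2 log2 units above every ER-positive line, and HCC1569 exceeded T47D by less than 1. PGAP3 stood at 12.01 in HCC1954, 10.48 in AU565/SKBR3, 6.42 in HCC1569 and 10.89 in UACC893, and at 7.75 in T47D, 8.09 in CAMA1, 8.29 in MDAMB175VII, 8.15 in ZR751 and 6.76 in KPL1. HCC1569 was here below all 5 ER-positive lines while its ERBB2 value lay in the same narrow band as those of the other amplified units. GSDMB, a member of the gasdermin family of pore-forming proteins, stood at 11.66 in HCC1954, 12.78 in AU565/SKBR3, 6.67 in HCC1569 and 11.44 in UACC893 and at 5.76 to 7.92 in the ER-positive lines, and again only HCC1569 fell among them.

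HCC1569 thus had high values over a short stretch of the genes measured. It was above every ER-positive line for PPP1R1B (13.66), a phosphatase inhibitor known from dopamine signalling, and for STARD3, TCAP, ERBB2, MIEN1 and GRB7. It lay within or below the ER-positive range for PGAP3, between TCAP and ERBB2, and, beyond GRB7, for IKZF3 (4.50), GSDMB, ORMDL3 (9.61), PSMD3 (10.43) and MED24 (7.95). UACC893 had a wide stretch of high values, as had AU565/SKBR3. UACC893 exceeded every ER-positive line at MED1 (12.18) and CDK12 (12.15), 2 regulators of transcription before ERBB2. After ERBB2 it did so at MED24 (11.81), THRA (11.56), NR1D1, MSL1 (13.05), CASC3 (13.47), WIPF2 (13.28) and CDC6 (13.19). PNMT, the enzyme that makes adrenaline, was not tested, and stood at 10.59 in UACC893 against at most 5.37 in the other 8 units.

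AU565/SKBR3 was above the ER-positive range at the same outer genes, with MED1 at 12.19, CDK12 at 12.07, MED24 at 10.81 and CDC6 at 12.59. Among the genes tested, HCC1954 was above the ER-positive range from STARD3 to ORMDL3 (13.14) and then returned to the ER-positive range at PSMD3 (10.73) and MED24 (8.74). Outside that stretch it also exceeded the ER-positive range at CDK12 (10.66, against at most 10.34) and CDC6 (12.02, against at most 11.38). TOP2A, the target of anthracyclines at the far end, was lowest in UACC893 (9.47) and ran from 10.71 to 12.06 in the ER-positive lines, with a difference of -0.20 ± 0.54. RARA differed by -0.53 ± 0.42, and IGFBP4, an estrogen target further out, by -3.86 ± 1.07. IGFBP4 stood at 5.64 to 5.99 in 3 amplified units and at 10.54 in HCC1569, within the ER-positive range of 9.62 to 12.33.

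**Figure D3:**
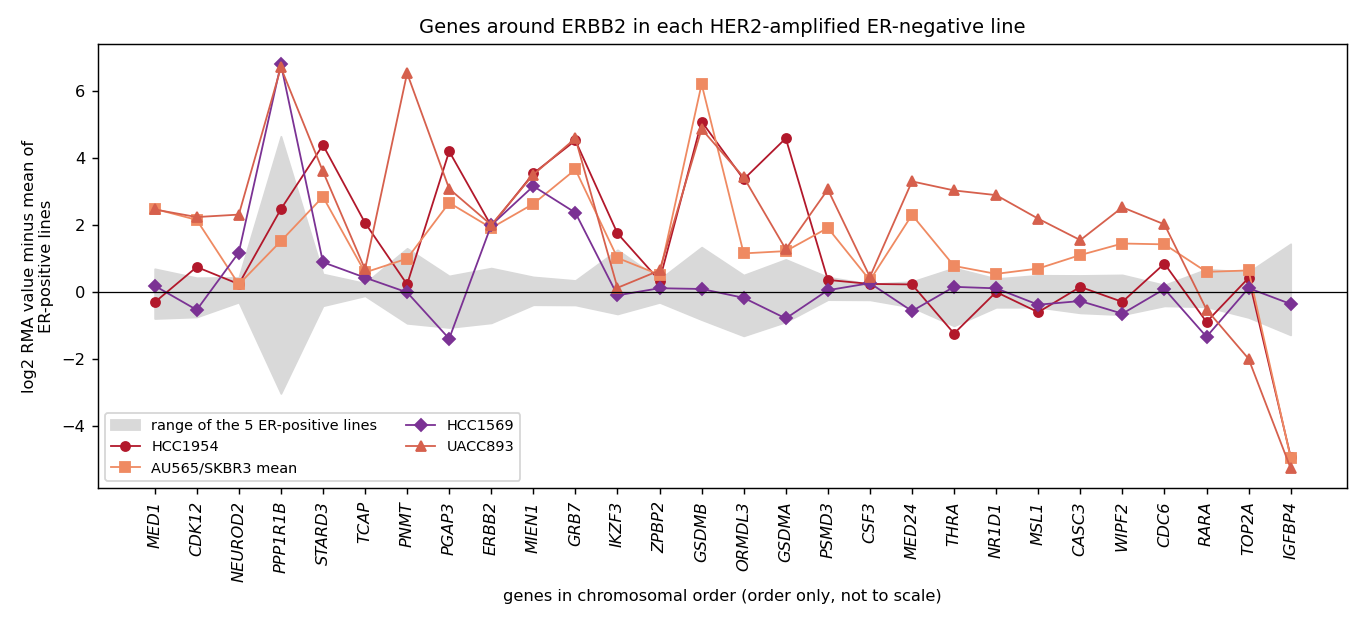
Log2 RMA value of 28 genes around ERBB2 minus the mean of the 5 ER-positive lines (y axis), in chromosomal order (x axis), for the 4 HER2-amplified ER-negative units as lines; the grey band is the range of the ER-positive lines. All 4 units are above the band at ERBB2, MIEN1 and GRB7, HCC1569 returns into it at IKZF3, and UACC893 is above it from MED24 to CDC6.

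The amplified units differed among themselves at this locus more than the ER-positive lines did. The SD over the 4 amplified units exceeded that over the 5 ER-positive lines for 21 of the 23 genes tested, with medians of 1.36 and 0.46, whereas over all genes tested this held for 7200 of 12569, with medians of 0.54 and 0.48. Without HCC1569 the sides did not overlap for 10 of the 23 genes that were higher, against 2.66% of all genes, and the median difference was 1.55. STARD3 (3.61 ± 0.38, adjusted p = 0.0135), GSDMB (5.39 ± 0.57, adjusted p = 0.0135) and PGAP3 (3.32 ± 0.47, adjusted p = 0.0416) were then called by limma beside MIEN1 and GRB7. Without both HCC1569 and HCC1954 it was 18 of 23, against 6.44%. With fewer units, a lack of overlap is easier to reach, as these backgrounds show.

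The other receptors of the ERBB family did not pass the test. EGFR, the founding member, stood at 10.72 in HCC1954, 10.21 in AU565/SKBR3, 7.65 in HCC1569 and 10.72 in UACC893, and at 8.38 in T47D, 7.62 in CAMA1, 7.85 in MDAMB175VII, 7.41 in ZR751 and 6.30 in KPL1. HCC1569 was within the ER-positive range and the other 3 amplified units were above it, for a difference of 2.31 ± 0.68 (adjusted p = 0.355, limma). ERBB3, which needs a partner to signal because its own kinase is weak, was high on both sides, at 11.10 in HCC1954, 12.53 in AU565/SKBR3, 12.93 in HCC1569 and 11.31 in UACC893 and from 12.35 to 12.72 in the ER-positive lines, with a difference of -0.58 ± 0.36. ERBB4 stood at 3.29 in HCC1954, 5.76 in AU565/SKBR3, 6.04 in HCC1569 and 9.30 in UACC893, and at 11.50 in T47D, 11.72 in CAMA1, 5.07 in MDAMB175VII, 8.37 in ZR751 and 6.96 in KPL1. T47D and CAMA1 had the highest values of this receptor and the sides overlapped (-2.63 ± 1.60).

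Of 11 ERBB ligand genes, 9 were measured and 6 were tested, and 0 were called. EGF ran from 6.59 to 8.86 in the amplified units and from 3.06 to 8.82 in the ER-positive lines, where KPL1 was lowest. TGFA, a ligand of EGFR, was at 3.17 in AU565/SKBR3 and at 6.29 to 9.74 in the other 8 units. EREG was highest in HCC1954 (8.39) and T47D (7.38). BTC differed by 0.48 ± 0.75 and HBEGF, highest in UACC893 at 9.31, by 1.32 ± 0.78. NRG1, a ligand of ERBB3, was highest in MDAMB175VII at 6.70 and at 4.84 to 5.84 in the other 8 units.

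Inhibitors that dampen ERBB and MAPK signalling, and genes that MAPK signalling induces, varied widely between lines within both sides. All 14 feedback inhibitors were tested, with 0 called, 0 without overlap and a median difference of 0.48. The mean was higher in the amplified units for 8 of them. The 14 MAPK output genes, 4 of which belong to both lists, had a median of 0.98, again with 0 called and 0 without overlap. Of these, 10 had a higher mean in the amplified units. Over all genes tested, 1.24% were higher and 2.43% lower without overlap, so 0 of 14 is near that share. ERRFI1, a direct inhibitor of ERBB kinases, ran from 11.45 to 13.03 against 10.81 to 11.90, a difference of 0.94 ± 0.32. DUSP6, a phosphatase that switches off ERK, stood at 11.59 in HCC1954, 7.05 in AU565/SKBR3, 10.76 in HCC1569 and 12.48 in UACC893, and at 9.78 in T47D, 6.12 in CAMA1, 12.60 in MDAMB175VII, 7.06 in ZR751 and 8.93 in KPL1. Its 3 highest values were in MDAMB175VII, UACC893 and HCC1954, from both sides. SPRY4, an inhibitor of receptor signalling, was likewise highest in MDAMB175VII (11.51).

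Averaged over the 14 output genes, relative to the mean of the 9 units, HCC1954 was at 1.68, UACC893 at 1.10 and MDAMB175VII at 0.98, while CAMA1 was lowest at -2.14 and AU565/SKBR3 and HCC1569 stood at -0.86 and -0.60. ETV5, a transcription factor induced by this pathway, stood at 11.62, 11.60 and 11.69 in 3 amplified units and 4.47 in the fourth, AU565/SKBR3. ETV4 ran from 6.61 to 8.78 and from 4.87 to 9.70. EPHA2 (2.10 ± 0.71) and the immediate early gene EGR1 (1.64 ± 0.72) had the most positive differences with an unadjusted p under 0.05 in that list. Of the most abundant members, DUSP4, CCND1 and IER3 differed by -0.86, -1.02 and -0.42, each with its lowest amplified value in HCC1569 (7.06, 9.30 and 9.99).

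Among the steroid and nuclear receptors, 15 of 18 were tested and 0 were called. ESR1 and PGR were lower without overlap, 2 of 15 against a background of 2.43%. PGR, the progesterone receptor and itself an estrogen target, stood at 2.46 in HCC1954, 2.43 in AU565/SKBR3, 2.54 in HCC1569 and 2.60 in UACC893, and at 11.55 in T47D, 9.84 in CAMA1, 2.71 in MDAMB175VII, 11.03 in ZR751 and 2.74 in KPL1. T47D, ZR751 and CAMA1 carried a strong signal, while MDAMB175VII and KPL1 exceeded the highest amplified unit by less than 0.2 at the floor of the array, so the lack of overlap rests there on values near background. ESRRA, an orphan receptor that resembles the estrogen receptor, had the most positive difference with an unadjusted p under 0.05 (0.95 ± 0.32), with 9.28 to 9.76 against 7.76 to 9.40.

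The remaining receptors had overlapping sides. The glucocorticoid receptor NR3C1 differed by 0.08 ± 0.59, the mineralocorticoid receptor NR3C2 by 0.84 ± 0.70 and the vitamin D receptor VDR by -0.41 ± 0.45. PPARG, a regulator of fat metabolism, was highest in MDAMB175VII (10.37) and lowest in UACC893 (4.12). ESRRG was highest in HCC1569 (9.64) and RARB in CAMA1 (7.87) and HCC1569 (7.87). THRA, on 17q, differed by 0.69 ± 0.79 and THRB by -0.77 ± 0.37, and for ESRRB, GPER1 and NR2F1 the differences were 0.20, -0.13 and 0.51.

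Most estrogen target genes had a lower mean in the HER2-amplified ER-negative lines, though few passed the test. Of 30 listed, 28 were tested, 26 had a lower mean, and the median difference was -2.69, against -0.04 for all genes, of which 6779 of 12569 had a lower mean. ABAT was called. The sides did not overlap for 8 of the 28, GREB1, PGR, XBP1, MYB, IGFBP5, ABAT, CA12 and EGR3, against 2.43% of all genes, and for 0 in the other direction. For PGR the lack of overlap rests on values near background, as given above. Since the filter asks for signal in only 3 units, genes expressed mainly in the ER-positive lines could enter it through those lines alone. This was so for GREB1, EGR3 and PGR, for which every amplified unit was below the array median. Their place among the 8 is therefore not independent of the filter. The list was drawn from genes known to respond to the hormone, and 2 of its members lie in the 17q12 list and 2 among the luminal factors.

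GREB1, a cofactor of the receptor and one of its most direct targets, stood at 5.06 in HCC1954, 5.32 in AU565/SKBR3, 4.93 in HCC1569 and 4.95 in UACC893, and at 8.36 in T47D, 8.12 in CAMA1, 5.93 in MDAMB175VII, 11.16 in ZR751 and 9.93 in KPL1. The 4 amplified units were within 0.5 of each other, while the ER-positive lines spread from MDAMB175VII to ZR751 over more than 5 log2 units. EGR3, an early growth response factor, stood at 3.39 in HCC1954, 4.61 in AU565/SKBR3, 3.13 in HCC1569 and 5.08 in UACC893, and at 8.18 in T47D, 5.53 in CAMA1, 9.83 in MDAMB175VII, 10.52 in ZR751 and 10.89 in KPL1. CAMA1 was the lowest ER-positive line and close to UACC893. CA12, a carbonic anhydrase of the cell surface, stood at 4.83 in HCC1954, 9.58 in AU565/SKBR3, 4.18 in HCC1569 and 10.32 in UACC893, and at 11.91 in T47D, 10.48 in CAMA1, 11.23 in MDAMB175VII, 12.25 in ZR751 and 10.92 in KPL1, so that AU565/SKBR3 and UACC893 came within 1 log2 unit of CAMA1.

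The spread among ER-positive lines was as wide for several other targets. AGR3, a secretory pathway protein, was at 12.51 in T47D, 12.23 in MDAMB175VII and 11.97 in ZR751 and below 3.5 in CAMA1 and KPL1, against 4.01 to 6.02 in the amplified units. PDZK1, a scaffold protein, was above 12 in T47D and ZR751 and below 7.5 elsewhere. RET, a receptor tyrosine kinase, was highest in UACC893 (11.11) and KPL1 (10.67) and below 4 in the other 3 amplified units. TFF3, a secreted trefoil peptide, was at 10.65 in UACC893 and at or below 7.32 in the other amplified units, against 7.33 to 12.92. IGFBP5 was at 4.72 in HCC1569 and at 9.71 to 10.14 in the other amplified units, below the ER-positive range of 11.27 to 12.14, and it was called by limma without HCC1569 (-1.71 ± 0.24, adjusted p = 0.0416). IRS1, the docking protein of the insulin and IGF receptors, was lowest in UACC893 (3.94).

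Further targets with lower means were BCL2 (-3.43 ± 1.47), RERG (-3.49 ± 1.40), SUSD3 (-3.03 ± 1.18), STC2 (-2.43 ± 1.20), CELSR2 (-1.63 ± 0.74), RAPGEFL1 (-1.16 ± 0.92), ADCY9 (-1.04 ± 0.59) and SIAH2 (-1.0 ± 0.35), none of them called. NHERF1 (-0.61), CTSD (-0.53) and FKBP4 (-0.14) were abundant on both sides. The 2 members with a higher mean were NRIP1 (0.17 ± 0.46) and PRSS23 (0.63 ± 1.95), a protease that ran from 4.32 to 12.58 and from 5.42 to 12.40. Averaged over the 28 genes, relative to the mean of the 9 units, UACC893 was nearest to the ER-positive side (-0.67) and HCC1569 farthest (-1.76), which are also the units with the highest and the lowest ESR1 values on that side. HCC1954 (-1.35) and AU565/SKBR3 (-1.33) were nearly equal, although their ESR1 values were 8.60 and 6.80. CAMA1 was the lowest ER-positive line at 0.21 and ZR751 the highest at 1.91. Without HCC1569 the sides did not overlap for 10 of the 28 lower genes, against 4.1%, with a median difference of -1.83. Without HCC1954 as well it was 13 of the 28, against 7.8%.

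**Figure D4:**
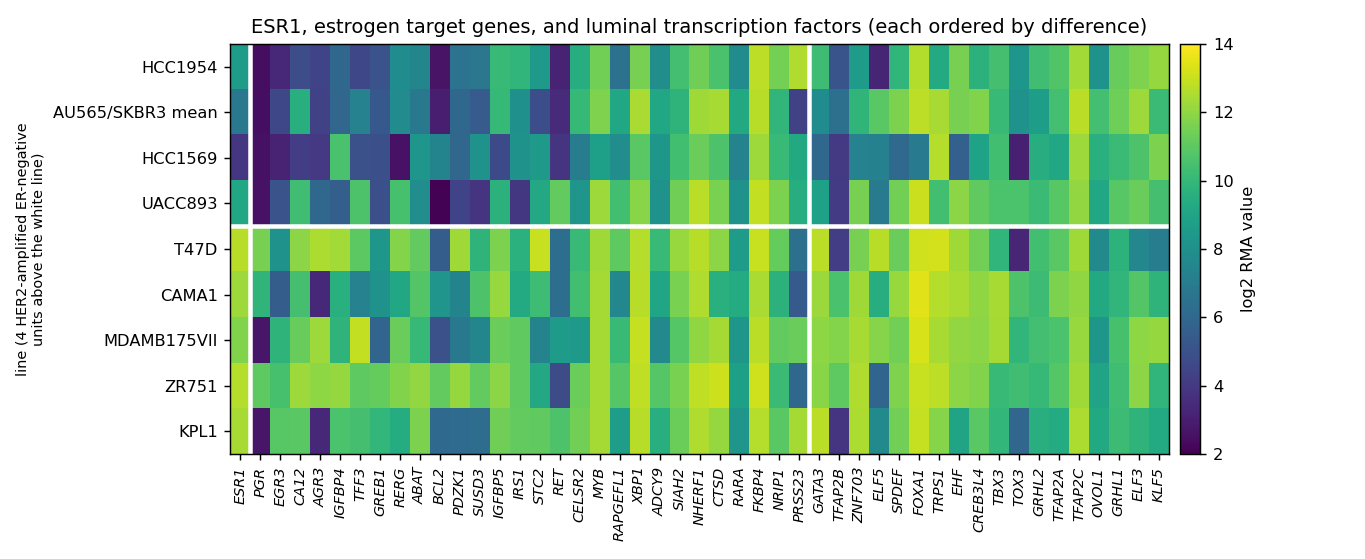
Log2 RMA values (colour) of ESR1, 28 estrogen target genes and the luminal transcription factors that are not among them (columns, ordered within each block by the difference between the sides) in the 9 units (rows). The 4 HER2-amplified ER-negative units above the white line are darker over most estrogen targets, GREB1 for example at 4.93 to 5.32, while FOXA1 is low only in HCC1569 at 6.94.

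Luminal transcription factors had no single pattern. All 20 measured were tested, 0 were called, and 4 were lower without overlap (GATA3, ZNF703, MYB and XBP1), against 2.43% of all genes. The median difference was -1.16. GATA3, the factor that maintains luminal identity, stood at 10.29 in HCC1954, 7.83 in AU565/SKBR3, 6.06 in HCC1569 and 8.86 in UACC893, and at 12.75 in T47D, 12.20 in CAMA1, 11.94 in MDAMB175VII, 11.89 in ZR751 and 12.77 in KPL1. HCC1954 was the highest amplified unit and still more than 1 log2 unit below the lowest ER-positive line. The 2 members of the averaged pair were at 8.96 in SKBR3 and 6.69 in AU565. The difference of -4.05 ± 0.72 had an adjusted p of 0.149 by limma, and of 0.0131 without HCC1954 and HCC1569. That fit leaves out HCC1954, the amplified unit nearest to the ER-positive lines, and GATA3 was not called without HCC1569 alone. ZNF703, a corepressor linked to luminal tumours, ran from 7.31 to 11.54 against 11.54 to 12.57, where UACC893 and T47D were nearly equal. XBP1, a factor of the secretory pathway, differed by -1.07 ± 0.27 and MYB, highest in UACC893 among the amplified units, by -1.32 ± 0.60.

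FOXA1 stood at 12.63 in HCC1954, 12.78 in AU565/SKBR3, 6.94 in HCC1569 and 13.04 in UACC893, and at 13.11 in T47D, 13.46 in CAMA1, 13.27 in MDAMB175VII, 12.99 in ZR751 and 12.96 in KPL1. The other 3 amplified units were within 1 log2 unit of every ER-positive line, and HCC1569 alone was low. SPDEF, an ETS factor of luminal and secretory cells, had its lowest value in the same unit (6.09), with 9.89 in HCC1954 and 11.24 or more elsewhere. TFAP2C differed by 0.08 ± 0.16, with all 9 units at 12.03 to 12.75. TFAP2B was at 10.55 in CAMA1, 11.77 in MDAMB175VII and 11.01 in ZR751, and at or below 6.43 in the other 6 units.

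Genes of luminal epithelial cells had a median difference of -0.61, with 21 tested, 0 called and 1 lower without overlap, the mucin MUC1, against 2.43% of all genes. MUC1 ran from 10.16 to 11.89 against 12.08 to 13.24, a difference of -1.66 ± 0.42. KRT7, a keratin of simple epithelia, was 1.93 ± 0.59 apart, with 12.77 to 13.71 against 9.80 to 13.11. KRT19 was at 7.02 in HCC1569 and 7.38 in HCC1954 and above 11 in the other 7 units. EPCAM was high in every unit (12.84 to 13.20 and 12.74 to 13.16), as was CD24 apart from a lower value of 11.95 in HCC1569. CDH1, which encodes E-cadherin, the main adhesion protein of epithelia, stood at 12.83 in HCC1954, 4.06 in AU565/SKBR3, 12.09 in HCC1569 and 13.03 in UACC893, and at 12.84 in T47D, 12.09 in CAMA1, 12.91 in MDAMB175VII, 13.33 in ZR751 and 12.95 in KPL1. AU565/SKBR3 was low and the other 8 units were above 12, and both members were low (4.42 in SKBR3 and 3.70 in AU565).

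Basal epithelial genes were highest in HCC1954. Relative to the mean of the 9 units the list stood at 2.92 there, at 0.71 in HCC1569, 0.56 in UACC893 and -1.24 in AU565/SKBR3. Of 25 listed, 15 were measured and 12 tested, with 0 called, 1 higher without overlap (TRIM29, against 1.24% of all genes) and a median difference of 1.89. TRIM29, a TRIM family protein of basal and squamous cells, stood at 9.65 in HCC1954, 9.73 in AU565/SKBR3, 9.34 in HCC1569 and 6.37 in UACC893, and at 6.13 in T47D, 3.58 in CAMA1, 3.82 in MDAMB175VII, 4.75 in ZR751 and 5.41 in KPL1. UACC893 came close to T47D and the other amplified units were above 9. The difference of 4.03 ± 0.81 had an adjusted p of 0.233 by limma, and of 0.049 without UACC893. UACC893 was the amplified unit nearest to the ER-positive lines. TRIM29 was not called without HCC1569, without AU565/SKBR3 or without ZR751. KRT5, the basal keratin, was not tested and stood at 12.04 in HCC1954 against 3.01 to 5.34 in the other 8 units. SERPINB5, maspin, was at 11.68 in HCC1954 and 11.58 in HCC1569 and at 3.33 and 3.52 in the other amplified units. KRT15 showed the same order (13.59, 12.81, 9.47 and 9.93). SOX9 differed by 0.59 ± 0.42, and the laminin receptor subunit ITGA6 was low in AU565/SKBR3 alone (4.79, against 10.10 or more). The integrin subunit ITGB4 was lowest of all units in HCC1569 (6.38). CDH3, P-cadherin, was at 9.31 in HCC1569, against 12.03 in UACC893 and 4.40 in AU565/SKBR3. Without HCC1954 and HCC1569 the median of the list was 0.15.

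The mesenchymal list was mixed as well, with 15 of 20 genes tested, 0 called and a median difference of 1.22. VIM, the intermediate filament vimentin, stood at 11.65 in HCC1954, 3.89 in AU565/SKBR3, 13.27 in HCC1569 and 5.70 in UACC893, and at 7.01 in T47D, 7.23 in CAMA1, 8.86 in MDAMB175VII, 6.39 in ZR751 and 5.55 in KPL1. Its 2 highest units were HCC1569 and HCC1954, and its lowest was AU565/SKBR3. MSN, which links the membrane to actin, and the hyaluronan receptor CD44 were also highest in these units, MSN at 13.19 and 12.86 and CD44 at 12.48 and 12.11. CAV1, of the caveolae, was at 12.56 in HCC1954, 9.50 in HCC1569 and 9.19 in KPL1. SNAI2, a repressor of E-cadherin, was above 9 in HCC1954 and HCC1569 and at 5.08 or below elsewhere, and was not tested.

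In the opposite direction, TWIST1 and GJA1 were lower without overlap, 2 of 15 against 2.43%. TWIST1, a transcription factor known from the mesoderm, stood at 5.56 in HCC1954, 4.32 in AU565/SKBR3, 6.07 in HCC1569 and 3.87 in UACC893, and at 6.90 in T47D, 10.24 in CAMA1, 12.04 in MDAMB175VII, 10.31 in ZR751 and 8.96 in KPL1. Its difference of -4.74 ± 0.96 had an adjusted p of 0.233 by limma, and the ER-positive line nearest to the amplified units was T47D. GJA1, connexin 43, ran from 3.18 to 3.76 against 4.0 to 9.48. KPL1 was close to the amplified units, which were all below the array median, so GJA1 passed the filter through ER-positive lines alone. TGFBI differed by 3.27 ± 0.93, ANXA1 by 3.37 ± 1.74 and the urokinase receptor PLAUR, highest in HCC1954 at 11.09, by 1.21 ± 0.63.

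Kallikreins and secreted protease inhibitors were highest in HCC1954. Relative to the mean of the 9 units the list stood at 4.02 there, at 1.84 in HCC1569, 0.51 in UACC893 and -0.80 in AU565/SKBR3, which was below ZR751 (0.57). The median difference was 2.06, and 0.80 without HCC1954 and HCC1569. Of 14 listed, 8 were tested and 0 called. These 8 had a higher mean in the HER2-amplified units, the 6 left out by the filter had differences from -0.26 (KLK11) to 1.56 (SERPINB3), and 3 did not overlap (SLPI, PI3 and LCN2), against 1.24% of all genes. LCN2, a lipocalin that binds siderophores, stood at 12.77 in HCC1954, 10.44 in AU565/SKBR3, 13.61 in HCC1569 and 10.20 in UACC893, and at 5.38 in T47D, 3.63 in CAMA1, 10.12 in MDAMB175VII, 8.25 in ZR751 and 6.40 in KPL1. UACC893 and MDAMB175VII were nearly equal, so the gap between the sides was small although the mean difference was 5.0 ± 1.30 (adjusted p = 0.306, limma). SLPI, an inhibitor of leukocyte elastase, ran from 12.14 to 13.81 against 6.55 to 11.76, with the same neighbour in MDAMB175VII. PI3, elafin, stood at 12.49 in HCC1569 and 8.99 in HCC1954 and at 6.48 to 6.80 in the other amplified units, against 5.60 to 5.78. KLK5 (13.64) and KLK6 (13.16), proteases of squamous epithelium, were highest in HCC1954, against at most 7.06 and 8.65 in the other units.

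S100A8, which pairs with S100A9 into the calcium-binding protein calprotectin, stood at 12.59 in HCC1954, 12.84 in AU565/SKBR3, 10.83 in HCC1569 and 13.06 in UACC893, and at 6.28 in T47D, 6.94 in CAMA1, 8.07 in MDAMB175VII, 11.42 in ZR751 and 6.32 in KPL1. All 4 amplified units were above 10, and ZR751 was the only ER-positive line that reached them, for a difference of 4.52 ± 1.03 (adjusted p = 0.252, limma). S100A9 differed by 3.24 ± 1.18, with MDAMB175VII (11.60) and ZR751 (10.61) above HCC1569 (10.14). The other S100 genes had no shared direction, the median over 11 tested being 0.35. S100A2 was highest in HCC1954 (13.25), and S100A11 and S100A13, the most abundant, differed by -0.02 and -0.25.

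Interferon-stimulated genes were highest in HCC1569. Of 16 tested, 15 had a higher mean in the amplified units, against 5790 of 12569 genes in all. Of the 16, 0 were called, and 1, IFI6, was higher without overlap, against 1.24%, with a median difference of 1.40. Relative to the mean of the 9 units the list stood at 3.52 in HCC1569 and 1.0 in HCC1954, at -0.45 in UACC893 and -0.72 in AU565/SKBR3, and between -1.65 in CAMA1 and 0.35 in MDAMB175VII on the other side. Without HCC1569 and HCC1954 the median was 0.13. MX1, an antiviral GTPase, stood at 5.39 in HCC1954, 5.12 in AU565/SKBR3, 12.28 in HCC1569 and 7.48 in UACC893, and at 8.29 in T47D, 5.64 in CAMA1, 8.44 in MDAMB175VII, 4.94 in ZR751 and 5.23 in KPL1, so HCC1569 was alone in a high value. IFI44 (11.39), IFIT2 (12.16) and OAS2 (10.91) were highest there as well. IFI6 ran from 11.51 to 13.34 against 8.45 to 11.20, and BST2, the one tested member with a lower mean, differed by -1.11 ± 0.88. Among 14 genes of MHC class I presentation 0 were called or without overlap, which is near the share over all genes. The abundant B2M and TAPBP differed by 0.23 and 0.35.

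**Figure D5:**
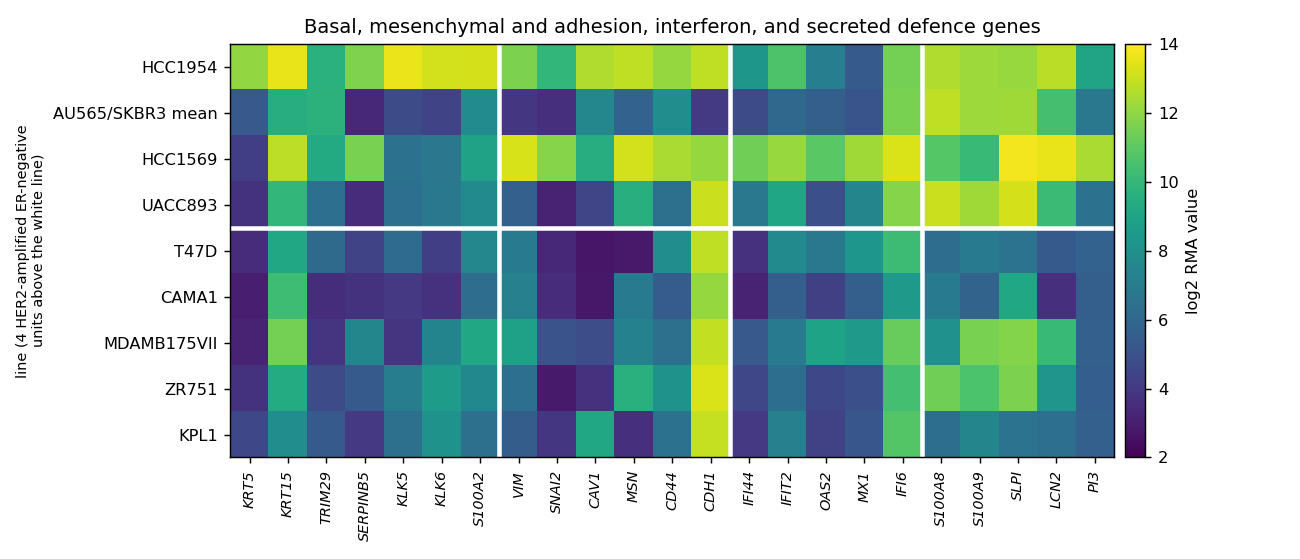
Log2 RMA values (colour) of basal genes, mesenchymal and adhesion genes, interferon-stimulated genes and secreted defence genes (columns, blocks in that order), chosen after their values were seen, in the 9 units (rows). KRT5 is high in HCC1954 alone (12.04), CDH1 is low in the AU565 and SKBR3 mean alone (4.06), MX1 is high in HCC1569 (12.28), and S100A8 is above 10 in all 4 HER2-amplified ER-negative units.

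Genes of IGF and insulin signalling, which luminal cells use for growth, had a median difference of -0.76, with 0 of 15 called. The mean was lower for 12 of the 15, against 6779 of 12569 genes in all, and 1, IGFBP5, was lower without overlap, against 2.43%. Of these, 3 also stand in the estrogen target list. IGFBP2 ran from 7.82 to 9.19 against 9.13 to 11.83 and differed by -2.32 ± 0.58. INPP4B, a lipid phosphatase that limits PI3K signalling, differed by -2.02 ± 0.72 and the receptor IGF1R by -1.26 ± 0.70, with UACC893 lowest at 7.44. IGF2R had a higher mean (0.79 ± 0.22). AKT1 and PIK3R3, the most abundant members, differed by -0.56 and -0.24.

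Proliferation, the cell cycle and lipid synthesis had medians near that of all genes. The medians were -0.16 over 17 proliferation genes, -0.06 over 15 cell cycle regulators and 0.03 over 15 lipid synthesis genes, with 0 called and 0 without overlap in each. Over all genes tested, 1.24% were higher and 2.43% lower without overlap, so 0 is near that share. UACC893 was the lowest unit for proliferation genes (-0.99 relative to the mean of the 9 units). CDK1, UBE2C and AURKA differed by -0.16, -0.06 and -0.15, CDK4 by -0.25, and the lipid genes SCD and FDPS by -0.07 and 0.03. CDKN1A, the p21 inhibitor of cyclin-dependent kinases, had a difference of -1.72 ± 0.51, with 8.20 to 10.47 against 10.08 to 11.88. CDK6 was lowest in CAMA1 (3.58) and ran from 8.86 to 10.35 in the amplified units. CCNE1, cyclin E1, was highest in HCC1569 (13.48), and CDKN2A was low in KPL1 alone (3.40, against 8.55 or more).

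The other pathway lists had 0 called genes and 0 genes without overlap. Over all genes tested, 0.0239% were called higher and 0.0318% lower, and 1.24% were higher and 2.43% lower without overlap. For lists of this size 0 is near those shares. Among apocrine and androgen-regulated genes the median over 11 was -0.35. PIP, a secreted protein of apocrine glands, was highest in T47D (13.45) and MDAMB175VII (12.92), and SCGB2A2, mammaglobin, in ZR751 (13.64), MDAMB175VII (13.56) and AU565/SKBR3 (12.40). AZGP1 and FKBP5 differed by 2.09 ± 1.07 and -1.66 ± 1.53, the latter lowest in UACC893 (4.14). In the BCL2 family the median over 14 was -0.36, and MCL1 and BAX differed by -0.27 and -0.45. Over 16 glutathione, NRF2 and aldehyde genes it was 0.76. AKR1B10, an aldo-keto reductase, had the most positive value there (4.34 ± 1.32), and NQO1 and TXNRD1 differed by 0.07 and 0.60.

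Genes of other amplified regions showed the particular make-up of single lines. All 17 tested genes of 17q23 had a lower mean in the HER2-amplified units (median -0.91), with 0 called and 0 without overlap. Over all genes tested, 6779 of 12569 had a lower mean and 2.43% were lower without overlap. KPL1 stood far above the rest there, at 2.10 relative to the mean of the 9 units, while the other ER-positive lines were between -0.46 and 0.44. In KPL1, BCAS3 stood at 11.95 and the phosphatase PPM1D at 11.89, against at most 8.03 and 9.36 in the other units. CLTC and SKA2 differed by -0.48 and -0.90. FGF4, a growth factor gene of 11q13, was at 11.62 in KPL1 and at or below 3.47 in the other units. The medians of 11q13 and 20q13 genes were -0.38 and 0.06, and CTTN and ZNF217, abundant members, differed by -0.33 and -0.38.

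The largest differences without overlap were not confined to the listed pathways. The genes that follow were chosen after their values were seen. CCN2, a matricellular protein induced by YAP and TGF-beta signalling, stood at 12.75 in HCC1954, 12.27 in AU565/SKBR3, 12.97 in HCC1569 and 11.71 in UACC893, and at 8.16 in T47D, 4.15 in CAMA1, 10.72 in MDAMB175VII, 5.58 in ZR751 and 8.60 in KPL1. MDAMB175VII was the highest ER-positive line, about 1 log2 unit below UACC893, and the difference was 4.98 ± 1.17 (adjusted p = 0.267, limma). Further genes above all ER-positive lines were MALL (4.43), GLYATL2 (4.36), TRIM2 (3.83), NNMT (3.69), CES1P1 (3.65), DHRS3 (3.64), GSDMC (3.36), LY6K (3.24) and PDZK1IP1 (3.21). NNMT, which methylates nicotinamide, and LY6K, a GPI-anchored surface protein, were highest in HCC1954 (11.71 and 10.95). GSDMC, a gasdermin encoded away from 17q, ran from 7.58 to 9.67 against 3.12 to 7.45. For NNMT (4.72 to 5.38), CES1P1 (3.81 to 4.34) and LY6K (4.87 to 5.40) every ER-positive line was below the array median. These genes passed the filter through the HER2-amplified units alone, and their differences are set against values near the low end of the array. The largest mean difference of all, 5.88 ± 1.35 for SDHAF3, an assembly factor of succinate dehydrogenase, came with overlap, since MDAMB175VII stood at 9.18 and the other ER-positive lines at 2.13 to 2.98.

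Below all ER-positive lines, DOCK10, an activator of small GTPases, stood at 4.43 in HCC1954, 3.17 in AU565/SKBR3, 4.01 in HCC1569 and 3.17 in UACC893, and at 6.78 in T47D, 8.82 in CAMA1, 11.25 in MDAMB175VII, 9.14 in ZR751 and 9.64 in KPL1. The difference of -5.43 ± 0.78 had an adjusted p of 0.0547 by limma, just above the threshold. GFRA1, a co-receptor of RET for GDNF, stood at 3.73 in HCC1954, 3.71 in AU565/SKBR3, 5.67 in HCC1569 and 4.42 in UACC893, and at 8.36 in T47D, 9.17 in CAMA1, 7.91 in MDAMB175VII, 8.58 in ZR751 and 10.45 in KPL1. Its adjusted p of 0.0501 by limma was the nearest to the threshold from above, for a difference of -4.51 ± 0.60. NPY1R, a neuropeptide Y receptor, was at 2.52 to 2.86 in the amplified units and at 6.12 to 9.81 in the ER-positive lines. ARMCX1 (-4.73 ± 0.65) and CLSTN2 (-3.67 ± 0.53) had adjusted p of 0.0547 and 0.0547 by limma, as had MSI1 and SCCPDH at 0.0547 and 0.0547. CBFA2T3 (-4.98), DNALI1 (-4.88), PPP1R3C (-5.20), ADAMTS19 (-5.03) and CNTNAP2 (-5.06) were further genes of this kind, with 1 or more ER-positive lines close to the amplified units, such as MDAMB175VII for CBFA2T3 (3.85) and CAMA1 for DNALI1 (5.04). For DOCK10, NPY1R, ARMCX1, CLSTN2, CBFA2T3, DNALI1 and ADAMTS19 every amplified unit was below the array median. These genes passed the filter through the ER-positive lines alone, and their differences are set against values near the low end of the array.

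Markers of cells other than epithelium were looked at beside these results. Of 9 measured blood cell markers, 0 were tested, and their mean level was 3.82 to 4.23 in the amplified units and 3.69 to 4.16 in the ER-positive lines. CD14 stood out at 8.71 in UACC893 and IKZF1 at 6.97 in ZR751, while the pan-leukocyte marker PTPRC was at or below 4.0 in all units. Of 11 fibroblast and matrix markers, 2 were tested, COL1A1 (-0.74 ± 0.70) and COL5A1 (-1.04 ± 1.31), with mean levels of 4.28 to 4.79 and 4.40 to 5.35, and POSTN, DCN, PDGFRB, THY1 and COL6A3 were below 5 in all units. COL3A1 was at 10.61 in CAMA1 and 7.24 in MDAMB175VII, LUM at 8.30 in MDAMB175VII and 5.47 in HCC1569, and PDGFRA at 7.28 in HCC1569. Of 8 endothelial markers, 3 were tested. PECAM1 was at 11.36 in HCC1954 and 9.92 in UACC893 and ESAM at 8.61 in AU565/SKBR3. CDH5 was at 7.95 in HCC1954, 7.32 in UACC893 and 6.70 in AU565/SKBR3 and at 3.68 in HCC1569, against 3.73 to 5.92 (2.04 ± 0.86). VWF was highest in MDAMB175VII (7.05), while KDR, TEK and EMCN were below 5 in all 9. Among adipocyte markers FABP4 stood at 11.13 and LPL at 8.47 in MDAMB175VII, ADIPOQ was below 5 in all units, and PLIN1 and CIDEC differed by 0.36 and -0.69. Of melanocyte markers, SOX10 was at 11.18 in HCC1569 and at or below 4.26 elsewhere, MLANA and TYR were below 5 in all units, TYRP1 was highest in T47D (10.57) and RAB38 in UACC893 (10.89), and MITF and PMEL differed by 1.32 and -0.24. SYP, the one neuroendocrine marker tested of 8, was highest in MDAMB175VII (8.89), INSM1 was at 8.44 in T47D and 7.88 in CAMA1, and NCAM1 at 7.41 in HCC1954. The part of any of these markers in the results was not tested. Of 7 keratinocyte differentiation genes tested, KRT10 and CALML5 differed by 0.04 and -0.49, and SPRR3 stood at 12.10 in MDAMB175VII.

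Over the 12569 genes, each centred on its mean over the 9 units, the correlation between 2 lines ran from -0.22 to 0.05 (median -0.05) within the HER2-amplified ER-negative side, from -0.14 to 0.07 (median -0.03) within the ER-positive side and from -0.29 to -0.08 (median -0.17) between the sides. Centring by itself puts the average of such correlations below 0, so a value near 0 is no lack of likeness, and genes are not independent. SKBR3 and AU565 correlated at 0.74. Their median absolute difference per gene was 0.27, against 0.54 between amplified units and 0.48 between ER-positive lines, and 347 genes differed by at least 2 log2 units between them.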

How the data were processed

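Total RNA of 58 established breast cell lines, labelled as breast cancer lines, was measured on custom Affymetrix arrays, 1 per line. The authors summarised and normalised the probes with RMA in Affymetrix Power Tools and deposited log2 values, per the submitters' processing notes. Versions are not given in the sources used here. Of 52377 probe sets, 35184 name 1 gene. Per gene the one with the highest mean was kept, which gave 19798 genes, symbols updated through RefSeq. The 12569 genes above the array median in at least 3 of the 9 units were tested with limma 3.58.1 in R 4.3.3 (robust, trended eBayes, Benjamini-Hochberg adjustment, threshold 0.05), SKBR3 and AU565 averaged. The script was tested on simulated data. Named genes are the markers, the called genes, the tested members of the 17q12, ERBB, nuclear receptor and estrogen target lists, the 10 with the smallest adjusted p, the 2 most abundant uncalled members of every other list, and the 15 largest non-overlapping genes each way; the genes of the last group and further examples were chosen after their values were seen. The members and lists were chosen with earlier results of these data known. Alternatives covered normalization, probe set choice, filter, the SKBR3 and AU565 pair, eBayes settings, array quality and each unit left out.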

Additional observations from a re-analysis of the deposited data

Results flagged for a closer look

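In 39 of the 406 groups of values looked at, each 1 gene on 1 side, 1 unit was farther from its nearest neighbour than Dixon's 95% critical value allows for its group size, given as gap over range. Chance alone gives about 1 in 20 such groups where genes are not selected. Some genes here were chosen after their values were seen, so that rate is no comparison for the number flagged. Values are log2 RMA, with the nearest other unit of the side beside each. Among the HER2-amplified ER-negative units, HCC1569 stood apart as highest for IGFBP4 (10.54, next 5.99) and SOX10 (11.18, next 4.13) and as lowest for EGFR (7.65, next 10.21), IER3 (9.99, next 12.27), IGFBP5 (4.72, next 9.71), FOXA1 (6.94, next 12.63), CD24 (11.95, next 13.34), KRT7 (12.77, next 13.56) and S100A9 (10.14, next 12.23). Among the HER2-amplified ER-negative units, HCC1954 stood apart as highest for TCAP (8.86, next 7.47), EREG (8.39, next 3.36), PLAUR (11.09, next 8.52) and SPRR3 (6.43, next 4.16). Among the HER2-amplified ER-negative units, AU565/SKBR3 stood apart as highest for ESAM (8.61, next 5.59) and as lowest for ITGA6 (4.79, next 11.61), CDH1 (4.06, next 12.09) and ETV5 (4.47, next 11.60). Among the HER2-amplified ER-negative units, UACC893 stood apart as highest for RET (11.11, next 3.78) and PNMT (10.59, next 5.06) and as lowest for PPARG (4.12, next 7.55), FKBP5 (4.14, next 10.74) and TRIM29 (6.37, next 9.34). Among the ER-positive units, KPL1 stood apart as highest for TCAP (7.06, next 6.77), BCAS3 (11.95, next 8.03), PPM1D (11.89, next 9.36) and FGF4 (11.62, next 3.14) and as lowest for ORMDL3 (8.48, next 9.77), EGF (3.06, next 7.32) and CDKN2A (3.40, next 8.55). Among the ER-positive units, MDAMB175VII stood apart as highest for PECAM1 (8.03, next 5.17), LY6K (5.40, next 5.0), FABP4 (11.13, next 4.81), SPRR3 (12.10, next 5.03) and SDHAF3 (9.18, next 2.98). Among the ER-positive units, T47D stood apart as highest for PSMD3 (10.82, next 10.34) and as lowest for MYB (12.28, next 12.37), BAX (9.86, next 10.90), ZNF703 (11.54, next 12.28) and CCNE1 (9.62, next 10.79).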

How the results depend on the processing

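The 3 higher and 4 lower calls rested on few units. With 1 unit left out in turn, higher genes numbered 1 to 10, lower genes 0 to 18 and called genes with a difference of at least 1 log2 unit 1 to 28. The last count was 28 without HCC1569, 14 without MDAMB175VII, 13 without UACC893, 4 without CAMA1, 3 without HCC1954, and 1 without AU565/SKBR3 or without ZR751. Counts in the order higher, lower and at least 1 log2 unit were 8, 18 and 24 with SKBR3 and AU565 as 2 samples, 7, 24 and 30 without HCC1954 and HCC1569, 1, 1 and 2 with array quality as a term, and 1, 1 and 2 at an adjusted p threshold of 0.01. With each array minus its own median, lower genes numbered 11 and genes with at least 1 log2 unit 15. Counts under the other alternatives were within 1.5 times the reported ones, including 1 chosen after seeing the data, the probe set with the highest mean over the 10 arrays.

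No called gene changed sign under any alternative. Of 195 named genes tested, 40 changed sign under at least 1, and the cause was not tested. Without HCC1954 and HCC1569 the sign turned for RARA (0.0473), DUSP4 (0.60), IER3 (0.0801), VDR (0.25), PPARG (-1.04), PRSS23 (-1.39), CTSD (0.17), RAPGEFL1 (0.14), CD24 (0.18), FDPS (-0.18), KRT10 (-0.0024), CALML5 (0.30), PIK3R3 (0.0174), COL1A1 (0.12), ESAM (0.53), PMEL (0.0030), KRT19 (0.0017), VIM (-2.22), KLK6 (-0.79), MX1 (-0.21), OAS2 (-0.51), CCNE1 (-0.0939) and SCGB2A2 (0.76). With the probe sets of each gene averaged the sign turned for PPARG (-0.036) and CDK1 (0.0017). With SKBR3 alone for the pair the sign turned for PPARG (-0.25), FDPS (-0.0016) and NQO1 (-0.0049). With SKBR3 and AU565 as 2 samples the sign turned for NRIP1 (-0.0122), PRSS23 (-0.29), FDPS (-0.012), NQO1 (-0.036) and ESAM (0.36). Leaving out 1 unit in turn gave both signs for THRA (-0.0945 to 1.33), MSL1 (-0.0862 to 0.84), TOP2A (-0.48 to 0.40), EGF (-0.27 to 1.18), TGFA (-1.50 to 0.70), EREG (-1.02 to 0.0333), BTC (-0.13 to 1.05), DUSP4 (-1.85 to 0.35), IER3 (-0.71 to 0.19), NR3C1 (-0.31 to 0.38), VDR (-0.74 to 0.0229), PPARG (-0.62 to 0.98), NRIP1 (-0.12 to 0.46), PRSS23 (-0.59 to 2.17), CD24 (-0.34 to 0.20), ITGA6 (-1.33 to 1.11), FKBP5 (-2.35 to 0.10), FDPS (-0.14 to 0.13), S100A11 (-0.0802 to 0.0393), KRT10 (-0.14 to 0.24), PIK3R3 (-0.52 to 0.0095), UBE2C (-0.28 to 0.31), CDK1 (-0.28 to 0.0173), NQO1 (-0.11 to 0.25), AURKA (-0.34 to 0.21), ESAM (-0.91 to 0.25), KLK6 (-0.41 to 2.49), MX1 (-0.51 to 1.87) and TFAP2C (-0.0536 to 0.18). Leaving out cross-hybridising probe sets could not be run, since 0 of the single-gene probe sets carry such a suffix. No paired analysis was possible because the labels hold nothing that pairs a line of one side with a line of the other.

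With 4 units against 5 and 1 array per line, differences of about 2 log2 units were often missed in simulated data, as given above. Signal near the floor of the array, as for PGR in MDAMB175VII and KPL1, carries no order.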
